A study of Mus musculus with 9 samples.

Results

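Semaphorins are secreted or membrane-bound guidance cues, and plexins and neuropilins are the receptors through which they act. Their transcripts were followed in mouse podocytes grown in culture. Podocytes are the cells whose foot processes wrap the capillaries of the kidney glomerulus. Members were chosen by symbol: Sema with a number and a letter, any symbol starting with Plxna, Plxnb, Plxnc or Plxnd, and Nrp1 and Nrp2. This took 32 of 22180 genes measured, namely 20 semaphorins, 9 plexins, 2 neuropilins and Plxna4os1, a transcript from the strand opposite Plxna4 that encodes no receptor and is counted apart from the other 31. Members were chosen by name, but the family itself was chosen with earlier results of these data known.

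RNA was measured on 9 arrays, 1 per sample, and came from podocytes that had been differentiated for 11 days at 37 °C. In 3 samples the cells received 2.5 µM thapsigargin with 10 µM forskolin, in 3 samples 2.5 µM thapsigargin alone, both for 16 hours, and in 3 samples DMSO, the vehicle. Thapsigargin blocks the SERCA pump that loads calcium into the endoplasmic reticulum (ER). Forskolin raises cAMP by switching on adenylyl cyclase. None of the samples analysed here received forskolin without thapsigargin. The labels call the 3 samples of a group biological replicates without saying whether they were separate cultures, so p-values measure the spread between these samples. The labels name the cell type, podocyte, and no strain, line or sex.

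A class 3 semaphorin is secreted and usually binds a neuropilin, which holds the ligand while a plexin carries the signal into the cell. Semaphorins of classes 4 to 7 are anchored in the membrane and bind plexins directly. The plexin's inner part acts on small GTPases, and in many cases, though not for every semaphorin, actin and integrin adhesion are lost where the signal arrives. Podocytes are known to make Sema3a, and in mice an excess of it in podocytes has been linked to flattened foot processes and loss of protein into the urine.

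Each probe set has 1 value per array on the log2 scale, so a difference of 1 is a doubling. Array medians lay between 5.80 and 5.88 and lower quartiles between 4.53 and 4.59. Correlations over all probe sets were 0.989 to 0.993 within groups and 0.966 to 0.992 between groups. Among 12 podocyte genes measured, 11 had a highest group mean above 5.84, the median of all values. Nphs1 averaged 6.55 and Wt1 6.80 in DMSO samples. Genes of other cell types were above 5.84 too: 5 of 8 endothelial genes in at least 1 group (Pecam1, Emcn and Tek were not), 3 of 7 macrophage and leukocyte genes (Csf1r, Cd14 and Cd68, whereas Ptprc, Adgre1, Lyz2 and Itgam were not) and 4 of 7 tubular genes. The endothelial Ehd3 averaged 10.36 and the tubular Cdh16 and Aqp1 11.16 and 11.71 in DMSO samples. The mean level of the podocyte list ranged from 7.69 to 7.73 with thapsigargin and forskolin, from 7.86 to 7.88 with thapsigargin and from 8.49 to 8.53 with DMSO, and that of the 7 tubular genes from 6.53 to 6.57, from 6.37 to 6.47 and from 7.68 to 7.72 in the same order of groups. After thapsigargin 6 of the 12 podocyte genes fell and 2 rose, and 4 of the 7 tubular genes fell, while 16.9% of all genes fell and 18.2% rose. Over the same groups the mean of the endothelial list ranged from 5.89 to 5.94, 5.92 to 6.02 and 6.11 to 6.19, that of the 5 mesangial and pericyte genes from 7.85 to 7.98, 7.33 to 7.39 and 7.74 to 7.82, that of the 7 macrophage and leukocyte genes from 6.09 to 6.12, 5.86 to 5.88 and 6.06 to 6.18, and that of 6 neuronal and glial genes from 6.36 to 6.50, 6.40 to 6.51 and 6.20 to 6.33. Of these last 4 lists, 2 of 8 endothelial genes (25%) fell after thapsigargin, Ehd3 (-1.21) among them, and 2 of 5 mesangial and pericyte genes (40%). In the other 2 lists, 1 of 7 macrophage and leukocyte genes fell (14.3%, Csf1r, -1.18) and 1 of 6 neuronal and glial genes rose (16.7%, Tubb3, 1.52). The median log2 changes of the 4 lists were 0.01, -0.26, -0.08 and -0.05 in this order. With forskolin added to thapsigargin, 5 of the 12 podocyte genes fell and 2 rose, against 4.17% and 3.7% of all genes. In the same comparison 2 of 5 mesangial and pericyte genes rose, by up to 2.58. Rises were also called for 2 of 7 macrophage and leukocyte genes and 1 of 7 tubular genes. Of 8 endothelial genes 1 fell, and of 6 neuronal and glial genes 0 were called. The part of the podocyte, tubular and other markers in the family's change was not tested. In bulk samples, fewer cells that express a gene and less of its RNA per cell cannot be told apart.

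The highest group mean exceeded 5.84, the median of all values, for 24 of the 31 coding members (15 of 20 semaphorins and 9 of 11 receptors) and for 13530 of all 22180 genes. The 7 below it were Sema3d, Sema3e, Sema4f, Sema4g, Sema6d, Plxnb3 and Plxnc1, and Plxna4os1 lay below it too. Plxna4, at 5.89 ± 0.04 with DMSO (SD, n = 3), Sema4a, at 6.01 ± 0.14 (SD, n = 3), and Sema6b, at 6.09 ± 0.14 (SD, n = 3), lay just above it. Sema4a averaged 5.66 with thapsigargin and 5.73 with the combined treatment, so it passed this level through its DMSO mean alone. Because background was corrected before deposit and no detection calls are used here, a low value is not read as absence. Several dim members carried 1 value on many arrays, such as Sema3e, which read 4.74 on 6 of the 9, and Sema6b, which read 5.94 on 5.

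**Figure D1:**
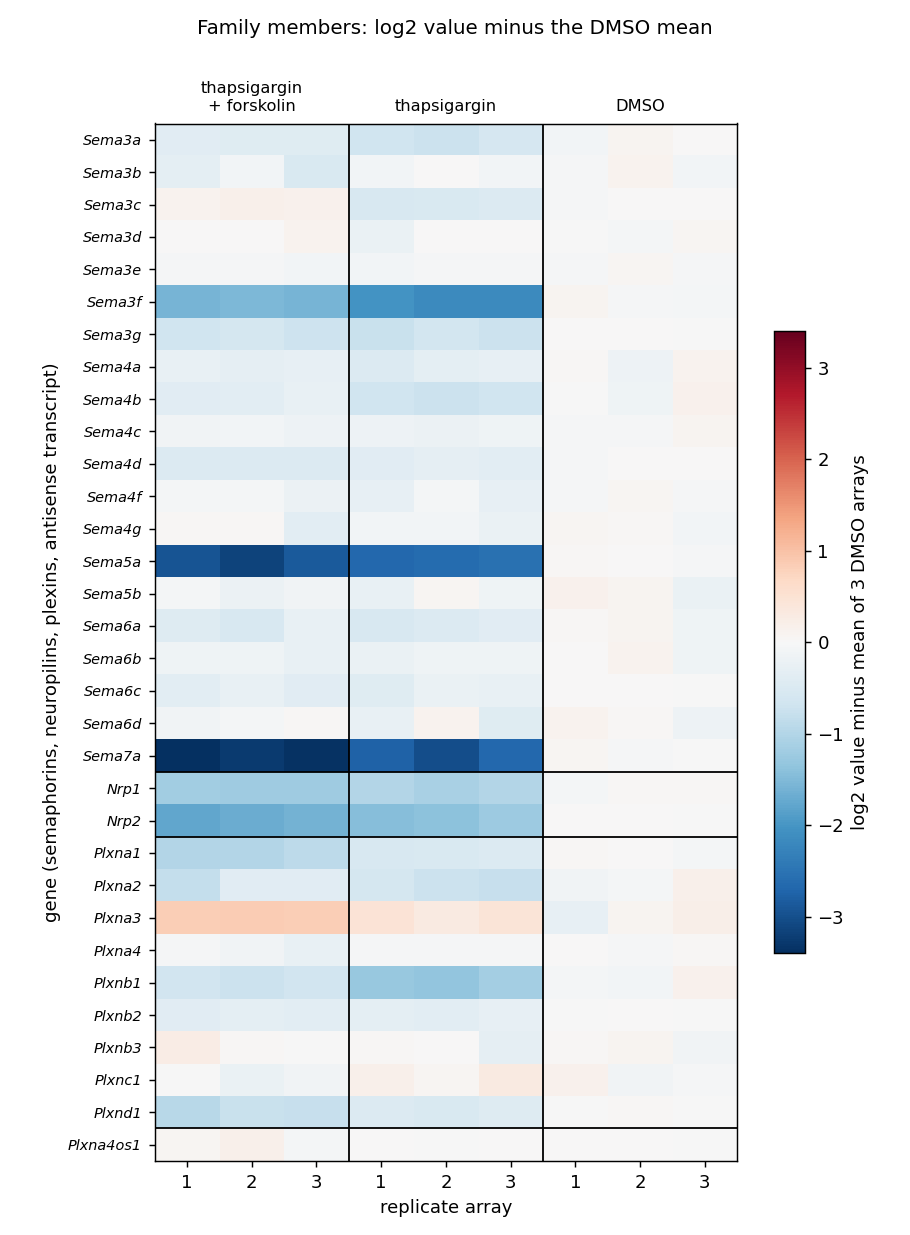
Each cell is the log2 value of a family gene (rows) on 1 array (columns, 3 replicates per group) minus the mean of the 3 DMSO arrays, blue where lower and red where higher. Sema7a, Sema5a and Sema3f are the darkest blue rows in both thapsigargin groups, Nrp1 and Nrp2 are blue throughout those groups, and Plxna3 is the row that is plainly red in both.

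The first comparison, thapsigargin against DMSO, asks which family transcripts differed when calcium could no longer be pumped into the ER. The calls were nearly all downward: 19 of 31 coding members fell, and 1, Plxna3, rose. The falls took in 12 of 20 semaphorins and 7 of 11 receptors. Sema7a, Sema5a and Sema3f fell 7.01-fold, 6.11-fold and 4.33-fold, and both neuropilins fell by about 1 log2 unit or more. Over all genes 16.9% were called lower, 18.2% higher and 35% in either direction, at a Benjamini-Hochberg adjusted p below 0.05 in limma, and the median log2 change was -0.35 over the coding members against -0.04 over all genes. Thapsigargin and DMSO values had no overlap in 21 of the 31 coding members, against 43.9% of all genes.

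Sema7a, the only vertebrate semaphorin anchored to the membrane by a lipid (GPI) tail, binds Plxnc1 and integrins that contain the beta1 chain. It read 6.43, 6.60 and 6.50 with thapsigargin and forskolin, 7.13, 6.84 and 7.20 with thapsigargin and 9.93, 9.82 and 9.86 with DMSO. The 3 groups did not overlap, and the combined treatment gave the lowest values. After thapsigargin alone its log2 change was -2.81 ± 0.09 (limma adjusted p = 2.85e-08), and 23 of 22180 genes had a more negative change. Its receptor Plxnc1 averaged 5.31 ± 0.12 with thapsigargin and 5.13 ± 0.15 with DMSO (SD, n = 3 each), and its change, 0.17 ± 0.09, did not pass (limma adjusted p = 0.21; 95% interval -0.04 to 0.39).

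Sema5a, a transmembrane semaphorin with thrombospondin-type repeats, read 6.39, 6.17 and 6.47 with thapsigargin and forskolin, 6.64, 6.71 and 6.77 with thapsigargin and 9.35, 9.32 and 9.28 with DMSO. Again the combined treatment lay lowest and DMSO highest, without overlap. The change after thapsigargin was -2.61 ± 0.08 (limma adjusted p = 1.72e-08), and 35 genes had a more negative one. Its relative Sema5b differed by -0.10 ± 0.11 and did not pass (limma adjusted p = 0.548; 95% interval -0.36 to 0.15), so the 2 members of class 5 were called differently, a difference that was not itself tested.

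Sema3f, a secreted repellent that binds Nrp2 above all, read 9.76, 9.81 and 9.76 with thapsigargin and forskolin, 9.32, 9.17 and 9.18 with thapsigargin and 11.43, 11.31 and 11.27 with DMSO. Here thapsigargin alone gave the lowest values and the combined treatment lay between the other groups. The change after thapsigargin was -2.11 ± 0.06 (limma adjusted p = 1.73e-08), with 82 genes more negative. A fall of at least 2-fold was called for 2.94% of all genes and for 6 family genes: these 3, Nrp1, Nrp2 and Plxnb1. A rise of that size was called for 0 family genes and 3.08% of all genes.

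**Figure D2:**
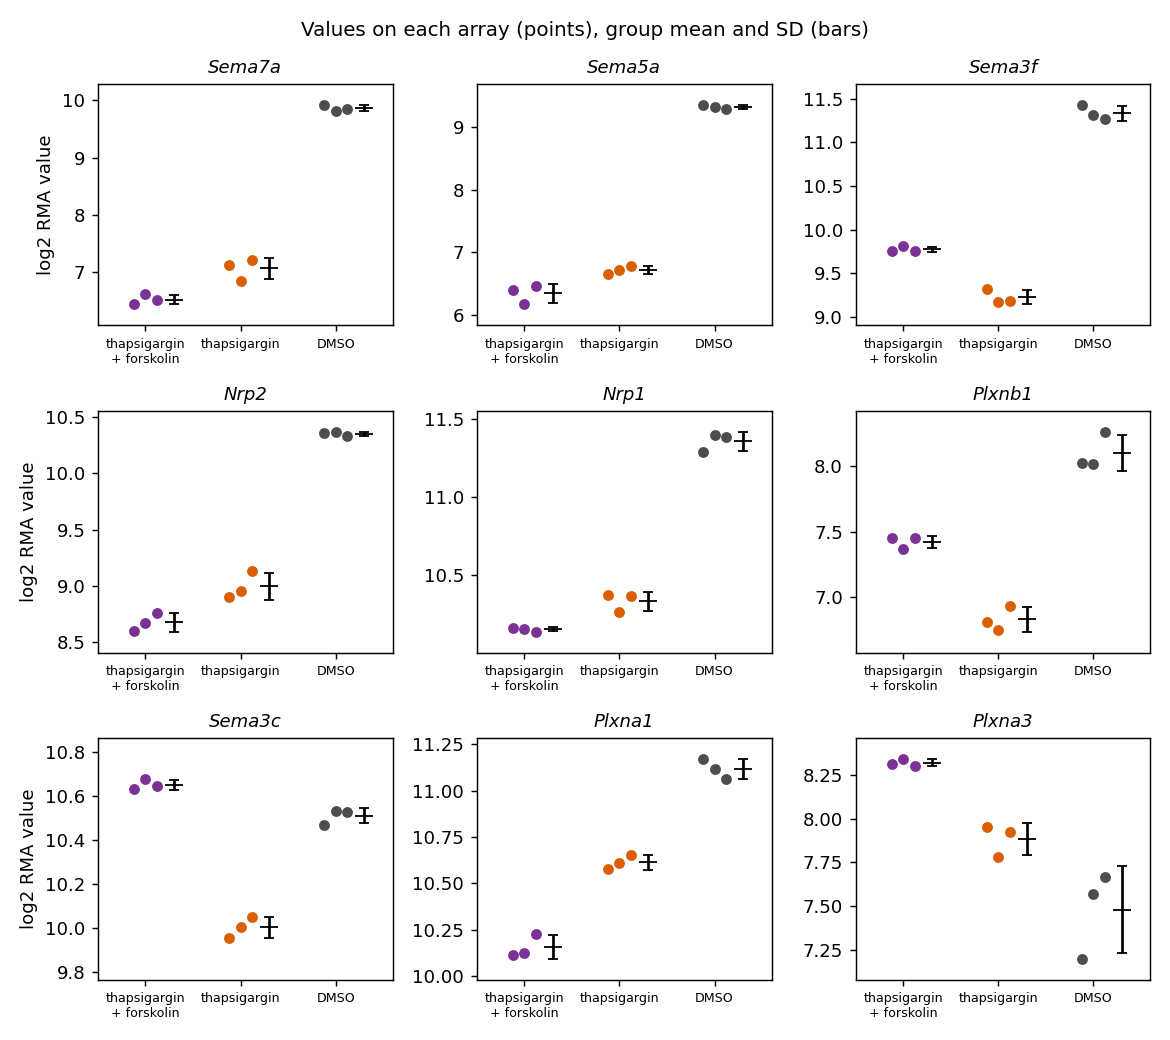
The log2 value of 9 family genes on every array, with thapsigargin plus forskolin on the left, thapsigargin in the middle and DMSO on the right, and with bars for the group mean and SD (n = 3). Sema7a, Sema5a, Nrp2, Nrp1 and Plxna1 step down from right to left, Sema3f, Plxnb1 and Sema3c are lowest with thapsigargin alone, and Plxna3 steps up from right to left. The vertical axes differ between panels and do not start at 0.

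Of the 7 class 3 semaphorins, 4 fell. Besides Sema3f these were Sema3a, Sema3c and Sema3g. Sema3a, which signals through Nrp1 with a class A plexin, read 7.74, 7.73 and 7.73 with thapsigargin and forskolin, 7.46, 7.39 and 7.56 with thapsigargin and 8.02, 8.23 and 8.13 with DMSO. Its groups did not overlap, with thapsigargin alone lowest, and the change after thapsigargin was -0.66 ± 0.07 (limma adjusted p = 4.08e-05). Sema3c, which binds both neuropilins and guides the growth of the heart's outflow tract in mouse embryos, read 10.63, 10.67 and 10.65 with thapsigargin and forskolin, 9.95, 10.00 and 10.05 with thapsigargin and 10.47, 10.53 and 10.52 with DMSO. It fell by 0.51 ± 0.05 after thapsigargin (limma adjusted p = 2.92e-05) but lay a little above DMSO on all 3 arrays of the combined treatment.

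Sema3g, a secreted semaphorin that binds Nrp2 and that mouse and human podocytes are known to make, read 6.54, 6.60 and 6.51 with thapsigargin and forskolin, 6.44, 6.59 and 6.48 with thapsigargin and 7.21, 7.22 and 7.19 with DMSO. The 2 thapsigargin groups overlapped each other and both lay below DMSO, with a change of -0.70 ± 0.06 after thapsigargin (limma adjusted p = 6.58e-06). The other secreted members did not pass the test. Sema3b differed by -0.06 ± 0.10 (limma adjusted p = 0.734), and the dim Sema3d and Sema3e by -0.06 ± 0.08 and -0.06 ± 0.05.

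Of the 6 class 4 semaphorins, which cross the membrane once and bind class B plexins in the main, 4 fell. Sema4b read 8.04, 8.09 and 8.18 with thapsigargin and forskolin, 7.74, 7.70 and 7.77 with thapsigargin and 8.42, 8.30 and 8.58 with DMSO, and fell by 0.70 ± 0.08 after thapsigargin (limma adjusted p = 6.06e-05). Sema4d, also called CD100, is the ligand of Plxnb1 and a signal between immune cells. It read 6.87, 6.88 and 6.86 with thapsigargin and forskolin, 6.95, 7.02 and 6.98 with thapsigargin and 7.31, 7.36 and 7.33 with DMSO, with a change of -0.35 ± 0.05 after thapsigargin (limma adjusted p = 0.00025). Both thapsigargin groups lay below DMSO for these genes without overlap.

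Sema4a, known from T cell and retinal biology, read 5.76, 5.70 and 5.74 with thapsigargin and forskolin, 5.56, 5.69 and 5.72 with thapsigargin and 6.06, 5.85 and 6.12 with DMSO, and its change after thapsigargin was -0.35 ± 0.08 (limma adjusted p = 0.00606). All its values in the thapsigargin groups lay below 5.84, the median of all values. Sema4c, a ligand of Plxnb2, read 8.13, 8.17 and 8.10 with thapsigargin and forskolin, 8.10, 8.05 and 8.11 with thapsigargin and 8.21, 8.21 and 8.35 with DMSO. Its change of -0.17 ± 0.06 was the smallest fall called (limma adjusted p = 0.0421). That call was lost with thapsigargin replicate 1, 2 or 3, DMSO replicate 3 or any 1 array of the combined treatment left out, with limma adjusted p from 0.0557 to 0.119, and also with only the 6 arrays compared (0.076) and with each array centred on its median (0.15). Leaving out DMSO replicate 1 and combined replicate 1 together lost it too (limma adjusted p = 0.0565). Sema4f differed by -0.21 ± 0.08 (limma adjusted p = 0.0604) and Sema4g by -0.13 ± 0.11 (limma adjusted p = 0.399), and Sema4f passed without thapsigargin replicate 2 (adjusted p = 0.0165).

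Class 6 semaphorins are transmembrane ligands of class A plexins, and 2 of the 4 fell. Sema6a, which binds Plxna2 and Plxna4, read 7.19, 7.08 and 7.39 with thapsigargin and forskolin, 7.09, 7.18 and 7.24 with thapsigargin and 7.67, 7.74 and 7.50 with DMSO. Sema6c read 6.63, 6.73 and 6.62 with thapsigargin and forskolin, 6.57, 6.76 and 6.75 with thapsigargin and 6.99, 7.02 and 6.97 with DMSO. Both lay lower in the 2 thapsigargin groups than with DMSO on every array, with changes of -0.47 ± 0.09 (limma adjusted p = 0.0031) and -0.30 ± 0.06 (limma adjusted p = 0.00513) after thapsigargin. Sema6b, at -0.17 ± 0.07, and Sema6d, at -0.19 ± 0.13, did not pass (limma adjusted p = 0.105 and 0.328), although Sema6b passed without DMSO replicate 3 (adjusted p = 0.0175) and Sema6d without thapsigargin replicate 2 (adjusted p = 0.0275, change -0.34).

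Both neuropilins fell. Nrp1, which binds Sema3a and also the growth factor VEGF-A, read 10.17, 10.16 and 10.14 with thapsigargin and forskolin, 10.37, 10.27 and 10.37 with thapsigargin and 11.29, 11.40 and 11.39 with DMSO. Nrp2, the main partner of Sema3f, read 8.59, 8.67 and 8.76 with thapsigargin and forskolin, 8.90, 8.96 and 9.13 with thapsigargin and 10.36, 10.37 and 10.33 with DMSO. For both genes the 3 groups were separate, with the combined treatment lowest. The change after thapsigargin was -1.02 ± 0.05 for Nrp1 (limma adjusted p = 5.02e-07) and -1.36 ± 0.07 for Nrp2 (limma adjusted p = 4.3e-07), or 2.03-fold and 2.56-fold.

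Among the 9 plexins, 5 fell and 1 rose. Plxnb1, the receptor of Sema4d, read 7.45, 7.37 and 7.45 with thapsigargin and forskolin, 6.81, 6.75 and 6.94 with thapsigargin and 8.03, 8.02 and 8.26 with DMSO, and its 2.41-fold fall was the largest among plexins (-1.27 ± 0.08, limma adjusted p = 1.38e-06). A second probe set with the Plxnb1 symbol fell by 0.30 ± 0.09 (adjusted p = 0.0312 over all probe sets with 1 symbol). Plxna1, a partner of Nrp1, read 10.11, 10.13 and 10.23 with thapsigargin and forskolin, 10.58, 10.61 and 10.65 with thapsigargin and 11.17, 11.12 and 11.06 with DMSO, and fell by 0.51 ± 0.06 (limma adjusted p = 6.35e-05). A second Plxna1 probe set differed by -0.31 ± 0.13 and did not pass (adjusted p = 0.108). The 2 probe sets of these genes gave the same direction with different sizes, so the sizes rest on the brighter one.

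Plxna2 read 6.97, 7.39 and 7.39 with thapsigargin and forskolin, 7.20, 7.05 and 7.02 with thapsigargin and 7.67, 7.74 and 7.96 with DMSO, with replicate 1 of the combined treatment apart from the other 2, and fell by 0.70 ± 0.12 after thapsigargin (limma adjusted p = 0.00133). Plxnb2, the receptor of Sema4c, read 11.68, 11.72 and 11.69 with thapsigargin and forskolin, 11.74, 11.71 and 11.79 with thapsigargin and 12.05, 12.08 and 12.06 with DMSO, a small fall of 0.32 ± 0.05 with little spread (limma adjusted p = 0.000475). Plxnd1 binds Sema3e without a neuropilin and shapes blood vessels. It read 7.08, 7.28 and 7.25 with thapsigargin and forskolin, 7.56, 7.52 and 7.58 with thapsigargin and 8.01, 8.08 and 8.01 with DMSO, with a change of -0.48 ± 0.06 (limma adjusted p = 0.000223).

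Plxna3, a partner of Nrp2 in Sema3f signalling, went the other way from its ligand and co-receptor. It read 8.31, 8.34 and 8.31 with thapsigargin and forskolin, 7.95, 7.78 and 7.92 with thapsigargin and 7.20, 7.57 and 7.67 with DMSO, and replicate 1 of DMSO lay well below the other 2. The groups did not overlap, and the rise after thapsigargin was 0.41 ± 0.11 (limma adjusted p = 0.0172). The call was lost without thapsigargin replicate 1 (adjusted p = 0.0627) and without thapsigargin replicate 3 (adjusted p = 0.0571), where the change was 0.37 and 0.39. Plxna4 at -0.04 ± 0.06, Plxnb3 at -0.09 ± 0.11 and Plxnc1 did not pass, and Plxna4os1 differed by 0.00 ± 0.07.

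Promoter sequences are shown for genes that moved differently with forskolin, so that the regulatory letters can be read beside the values. RefSeq windows of GRCm38.p6 reach from 250 bases before to 50 after a gene's start and held 37 starts of 26 of the 32 genes. Sema3f, Plxna1, Sema6a, Sema3b, Plxna4 and Plxna4os1 had no window. The 250 bases before the start are printed for 3 genes that fell with thapsigargin and again with forskolin (Sema7a, Sema5a, Nrp2) and for 2 that fell with thapsigargin and were higher when forskolin was added (Sema3c, Plxnb1). The forskolin calls of Sema5a and Nrp2 were lost under some alternatives, given below. Plxnd1 and Sema4b, which had windows and changed in the first and second way, are not printed. Capitals mark GC boxes, GGGCGG or its reverse complement CCGCCC, the letters that factors of the SP family bind, and overlapping copies run together.

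Sema7a, chr9:57939862-57940111, + strand: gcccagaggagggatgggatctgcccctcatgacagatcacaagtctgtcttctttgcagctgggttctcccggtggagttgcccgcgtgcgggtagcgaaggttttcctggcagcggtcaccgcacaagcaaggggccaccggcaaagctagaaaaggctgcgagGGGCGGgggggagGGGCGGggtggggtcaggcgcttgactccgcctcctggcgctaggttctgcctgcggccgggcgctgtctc
Sema5a, chr15:32244563-32244812, + strand: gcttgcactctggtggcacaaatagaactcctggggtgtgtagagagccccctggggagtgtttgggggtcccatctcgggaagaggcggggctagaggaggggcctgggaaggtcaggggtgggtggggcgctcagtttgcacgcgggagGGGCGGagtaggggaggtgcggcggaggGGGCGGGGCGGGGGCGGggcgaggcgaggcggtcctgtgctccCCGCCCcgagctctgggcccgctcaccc
Nrp2, chr1:62703067-62703316, + strand: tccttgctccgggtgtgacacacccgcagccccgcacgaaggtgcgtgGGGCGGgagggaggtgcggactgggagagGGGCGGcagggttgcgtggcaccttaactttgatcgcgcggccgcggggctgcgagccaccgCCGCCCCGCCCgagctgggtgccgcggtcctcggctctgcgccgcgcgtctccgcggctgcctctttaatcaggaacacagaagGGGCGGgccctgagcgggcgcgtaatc
Sema3c, chr5:17574566-17574815, + strand: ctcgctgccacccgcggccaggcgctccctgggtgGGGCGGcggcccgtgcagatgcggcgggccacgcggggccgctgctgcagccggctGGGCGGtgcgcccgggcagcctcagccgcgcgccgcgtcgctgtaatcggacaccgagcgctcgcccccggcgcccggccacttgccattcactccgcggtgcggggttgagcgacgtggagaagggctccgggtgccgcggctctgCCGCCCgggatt
Plxnb1, chr9:109095186-109095435, + strand: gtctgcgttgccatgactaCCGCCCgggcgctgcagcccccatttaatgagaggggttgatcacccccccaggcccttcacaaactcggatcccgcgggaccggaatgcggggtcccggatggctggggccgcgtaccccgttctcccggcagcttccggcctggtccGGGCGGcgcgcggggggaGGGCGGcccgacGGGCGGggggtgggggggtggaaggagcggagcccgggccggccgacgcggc

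All 5 stretches hold GC boxes, in both sets of genes. At least 1 stood in 73% of the 37 family windows, against 35.7% of all 32851 windows, and the family windows were also richer in G and C, with a median of 63.7% against 52.7%. The TATA box TATAAA was in 0 of the 37 windows, against 13.6% of all. The AP-1 site TGANTCA was in 3 of 37 (Sema4c, Sema4d and Sema6b), a share of 8.11%, against 7.81% of all. These 3 motifs were chosen after the values were seen. All motifs were read on both strands, and a match is a description of letters, not a binding site.

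Of the motifs tied to the 2 treatments, the cAMP response element TGACGTCA, the C/EBP-ATF response element TGATGNAA, the ER stress element (CCAAT and CCACG with a fixed spacer) and the unfolded protein response core TGACGTGG were each in 0 of the 37 windows, against 1.79%, 3.97%, 0.119% and 0.676% of all. The short core TGACG, which the full cAMP element and TGACGTGG contain, was in 3 of 37, 8.11% against 20.8% of all. These were Sema3d and the 2 genes with the largest falls, where it begins at base 41 (Sema7a) and base 29 (Sema5a, on the opposite strand, so CGTCA is read), counted from 1 at the start. It is in capitals here.

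Sema7a, chr9:57940137-57940161, + strand: tccggggctgcgggaTGACGcctcc
Sema5a, chr15:32244831-32244855, + strand: aggaaggcggCGTCAgcagcggctg

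**Figure D3:**
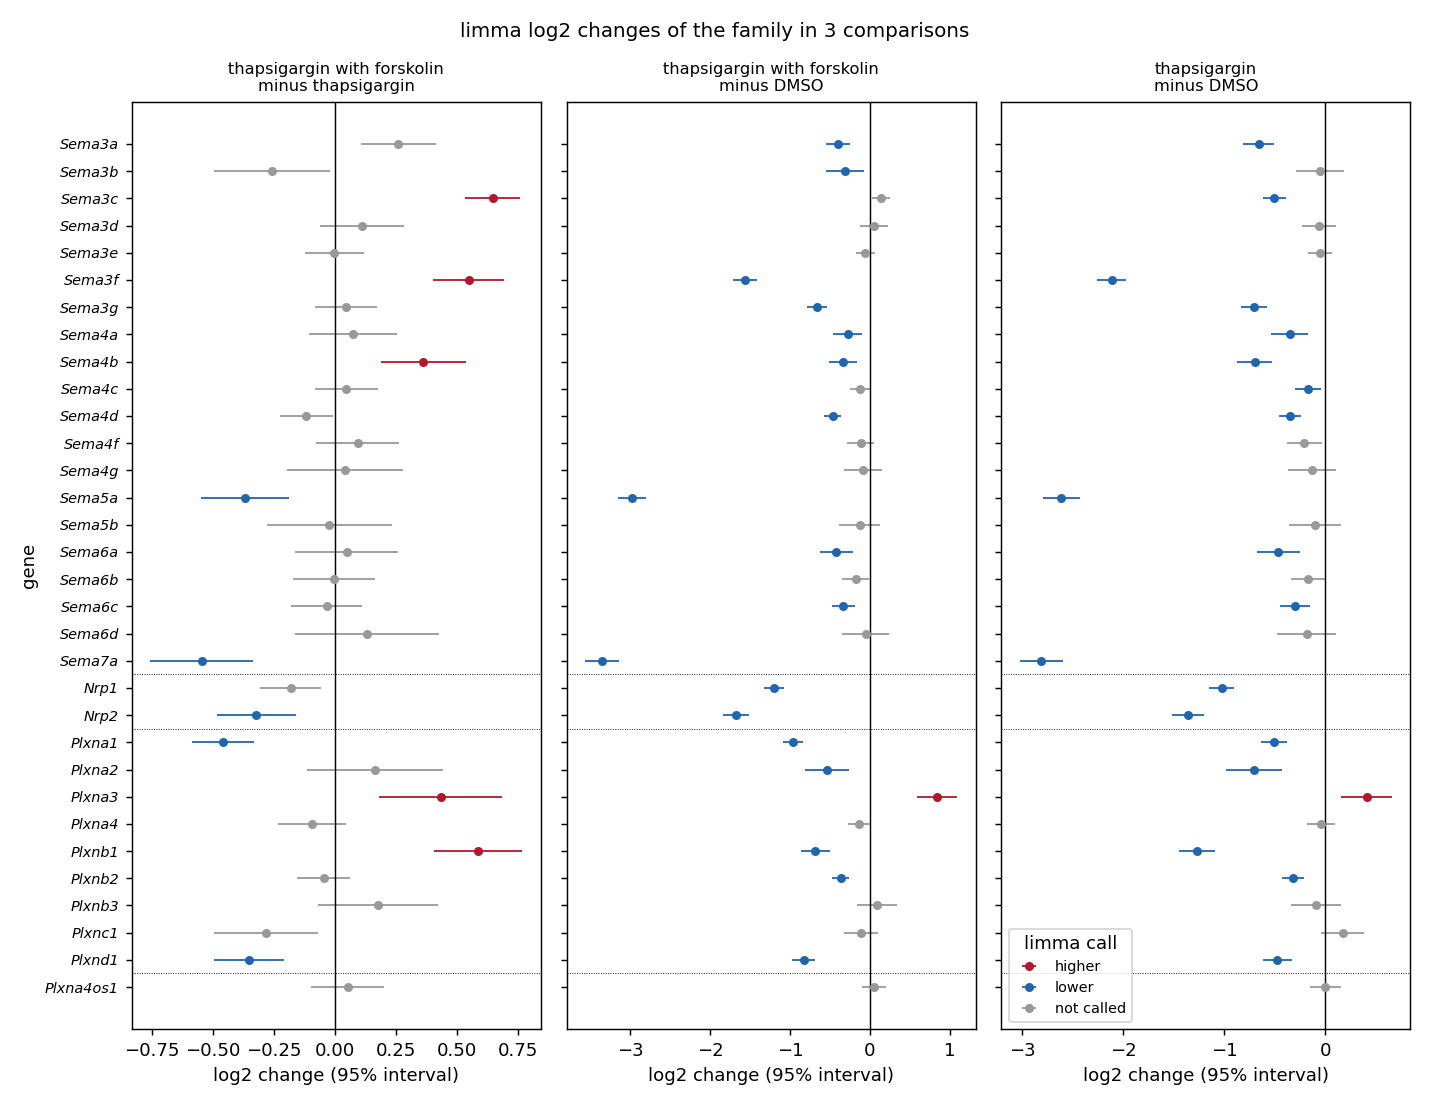
The limma log2 change of each family gene with its 95% interval, from left to right for thapsigargin plus forskolin minus thapsigargin, thapsigargin plus forskolin minus DMSO, and thapsigargin minus DMSO, coloured by the call. In the left panel 5 genes are red and 5 blue, and in the other panels nearly all coloured points are blue and Plxna3 is the red one. The horizontal scales differ between panels.

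The second comparison, the combined treatment against thapsigargin alone, asks what forskolin added. The family split: 5 coding members rose (Sema3c, Plxnb1, Sema3f, Plxna3 and Sema4b) and 5 fell (Sema7a, Plxna1, Sema5a, Plxnd1 and Nrp2), while 21 did not pass. Over all genes 3.7% were called higher, 4.17% lower and 7.87% in either direction, and the median log2 change was 0.04 over the coding members and -0.01 over all genes. No family change reached 2-fold, a size called higher for 0.271% and lower for 0.131% of all genes. Values did not overlap for 14 of the 31, against 26.1% of all genes. Among semaphorins 3 rose and 2 fell, and among receptors 2 rose and 3 fell. Of the 10, all but Plxna3 had fallen after thapsigargin. Both comparisons use the thapsigargin samples, so a chance deviation in them would enter both with opposite signs.

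Sema3c rose 1.57-fold when forskolin was added (0.65 ± 0.05, limma adjusted p = 6.32e-05), and 167 of 22180 genes rose more. Its values with forskolin, given above, lay 0.14 ± 0.05 above DMSO, which did not pass (limma adjusted p = 0.0566) in the main test, though it did with an intensity trend (adjusted p = 0.00812) and among genes above 5.84 (adjusted p = 0.0228). Plxnb1 rose by 0.59 ± 0.08 (limma adjusted p = 0.00201) and its second probe set differed by 0.11 ± 0.09, which did not pass (adjusted p = 0.62). Sema3f rose by 0.55 ± 0.06 (limma adjusted p = 0.000868). Plxnb1 and Sema3f nevertheless stayed below DMSO on every array of the combined treatment.

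Sema4b rose by 0.36 ± 0.08 (limma adjusted p = 0.0196), with no overlap between the groups. The call was lost without thapsigargin replicate 1, 2 or 3 or combined replicate 2 or 3, with changes from 0.33 to 0.38 and adjusted p from 0.0538 to 0.077, and without DMSO replicate 1 and combined replicate 1 together (0.0521). Plxna3 rose by 0.43 ± 0.11 (limma adjusted p = 0.046), a second step in the direction it had taken with thapsigargin. Its call was lost without any 1 of the 6 arrays compared (adjusted p from 0.0944 to 0.155), without DMSO replicate 2 (adjusted p = 0.064) and with each array centred on its median (0.0792), while the change stayed between 0.38 and 0.47. Sema3a lay at 0.26 ± 0.07 without overlap and just missed the threshold (limma adjusted p = 0.0503; 95% interval 0.11 to 0.42), with limma adjusted p of 0.0497 without thapsigargin replicate 3, 0.0309 without DMSO replicate 1, 0.0441 without DMSO replicate 2 and 0.0203 to 0.0396 in 4 other settings.

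Sema7a fell further by 0.55 ± 0.09 (limma adjusted p = 0.00658), Plxna1 by 0.46 ± 0.06 (limma adjusted p = 0.00115) and Plxnd1 by 0.35 ± 0.06 (limma adjusted p = 0.00853). The second Plxna1 probe set differed by -0.19 ± 0.13 (adjusted p = 0.525). These 3 genes, with Sema3c, Sema3f and Plxnb1, were the 6 whose call held under all 18 alternatives run. Sema5a fell by 0.37 ± 0.08 (limma adjusted p = 0.0215), a call lost without thapsigargin replicate 2 (change -0.37, adjusted p = 0.0701) or 3 (change -0.34, adjusted p = 0.0864), with only the 6 arrays compared (0.0532) and without DMSO replicate 1 and combined replicate 1 together (0.061). Nrp2 fell by 0.32 ± 0.07 (limma adjusted p = 0.0246), lost without combined replicate 1 or 2 or thapsigargin replicate 2 or 3, with changes from -0.34 to -0.25 and adjusted p from 0.0589 to 0.0853, with only the 6 arrays compared (0.0571) and without DMSO replicate 1 and combined replicate 1 together (0.0957).

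Nrp1 lay lower with forskolin on every array, at -0.18 ± 0.05, but did not pass (limma adjusted p = 0.0916), although it did with an intensity trend (0.0116), with array weights (0.0449) and among genes above 5.84 (0.0359). Of the remaining semaphorins, Sema3b at -0.26 ± 0.10 (95% interval -0.49 to -0.02) and Sema4d at -0.12 ± 0.05 (-0.22 to -0.01) had intervals that excluded 0 before adjustment over all genes, and the others differed by -0.03 to 0.13. Sema6a and Sema6c, which fell after thapsigargin, differed by 0.05 ± 0.09 and -0.03 ± 0.06, with intervals of -0.16 to 0.26 and -0.18 to 0.11. Plxnb2 differed by -0.05 ± 0.05 (-0.15 to 0.06) and Plxna2 by 0.17 ± 0.12 (-0.11 to 0.44). The dim Plxnc1 differed by -0.28 ± 0.09 without overlap and did not pass (limma adjusted p = 0.128).

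The third comparison set the combined treatment against DMSO. It shares samples with both others. Of 31 coding members 18 fell and 1, Plxna3, rose, 11 falls being semaphorins and 7 receptors, against 16.7% of all genes called lower, 17.9% higher and 34.5% in either direction. Values did not overlap for 21 of the 31, against 42.6% of all genes. The median log2 change was -0.33 over the coding members and -0.04 over all genes. Sema7a fell 10.2-fold (-3.36 ± 0.09, limma adjusted p = 1.29e-08) and only 8 of 22180 genes had a more negative change. Sema5a fell 7.88-fold (-2.98 ± 0.08), with 16 genes more negative.

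Nrp2 fell 3.2-fold (-1.68 ± 0.07), Sema3f 2.96-fold (-1.56 ± 0.06) and Nrp1 2.31-fold (-1.20 ± 0.05). A fall of at least 2-fold was called for these 5 family genes and for 2.7% of all genes, and a rise of that size for 0 and 2.57%. The other plexins that fell were Plxna1 (-0.96 ± 0.06), Plxnd1 (-0.83 ± 0.06), Plxnb1 (-0.68 ± 0.08), Plxna2 (-0.54 ± 0.12) and Plxnb2 (-0.36 ± 0.05), with limma adjusted p up to 0.00711. The second Plxna1 probe set differed by -0.51 ± 0.13 (limma adjusted p = 0.0151). The second Plxnb1 probe set differed by -0.19 ± 0.09 and did not pass (limma adjusted p = 0.155). Plxna3 rose by 0.84 ± 0.11 (limma adjusted p = 0.000233), 1.79-fold, and this call held under all 18 alternatives.

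Among the remaining semaphorins, Sema3g (-0.66 ± 0.06), Sema4d (-0.46 ± 0.05), Sema6a (-0.42 ± 0.09), Sema3a (-0.40 ± 0.07), Sema4b (-0.33 ± 0.08) and Sema6c (-0.33 ± 0.06) fell, with limma adjusted p up to 0.00725. Sema4b (adjusted p = 0.0547) and Sema6a (adjusted p = 0.061) did not pass when DMSO replicate 1 and combined replicate 1 were both left out. In that setting Sema3b (limma adjusted p = 0.146) and Sema4a (limma adjusted p = 0.102), given next, did not pass either. Sema3b, which read 6.03, 6.28 and 5.86 with thapsigargin and forskolin, 6.28, 6.38 and 6.28 with thapsigargin and 6.33, 6.50 and 6.28 with DMSO, fell by 0.31 ± 0.10 with overlapping values (limma adjusted p = 0.0446), and its call was lost without combined replicate 1 or 3, DMSO replicate 1 or 2 or any thapsigargin array (adjusted p from 0.0597 to 0.148), and with only the 6 arrays compared (0.0905). Sema4a fell by 0.28 ± 0.08 (limma adjusted p = 0.0222), lost without combined replicate 2 or 3 or DMSO replicate 1 or 3 (adjusted p from 0.0547 to 0.0718), and with array weights (0.0597). Sema4c at -0.12 ± 0.06 did not pass (limma adjusted p = 0.129), but did after another quantile normalization (-0.21, adjusted p = 0.0102).

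**Figure D4:**
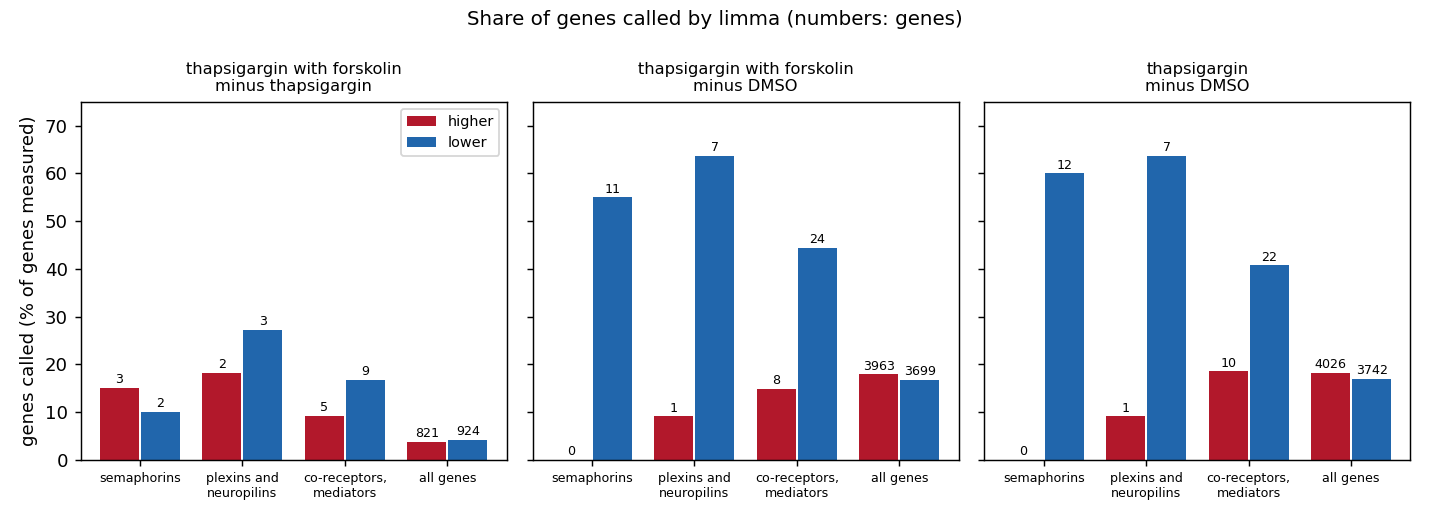
Bars give the percent of measured genes called higher (red) and lower (blue) by limma, with the number of genes above each bar, for semaphorins, plexins with neuropilins, the list of co-receptors, processing enzymes and mediators, and all genes. In the middle and right panels the blue bars of semaphorins and receptors exceed those of all genes, with 11 and 12 of 20 semaphorins and 7 of 11 receptors lower, and in the left panel red and blue bars both stand in each group.

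Set by ligand and receptor, pairs known from other work moved in the same or opposite directions as follows. Sema3f and its receptor Nrp2 both fell after thapsigargin, and Plxna3, the plexin they share, rose. With forskolin added, Sema3f rose by 0.55, Nrp2 fell by 0.32 and Plxna3 rose by 0.43. Sema3a, Nrp1 and Plxna1 all fell after thapsigargin. Plxna1 fell again with forskolin, whereas Sema3a at 0.26 and Nrp1 at -0.18 did not pass. Sema4d and Plxnb1 both fell after thapsigargin, and with forskolin Plxnb1 rose while Sema4d lay at -0.12. Sema7a fell in all 3 comparisons and its plexin, the dim Plxnc1, passed in 0. Itgb1, the beta1 chain of the integrins that Sema7a binds, was named after its values were seen. It changed by -0.43 ± 0.05 after thapsigargin (limma adjusted p = 5.97e-05) and by -0.21 ± 0.05 with forskolin added (limma adjusted p = 0.027).

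A list of 59 co-receptors, ligand-processing enzymes and mediators of the pathway was compared with the family, and 54 of them were measured. After thapsigargin 22 fell (40.7%, against 16.9% of all genes) and 10 rose (18.5%, against 18.2% of all genes), with a median log2 change of -0.11. With forskolin added to thapsigargin 9 fell (16.7%, against 4.17%) and 5 rose (9.26%, against 3.7%). With the combined treatment against DMSO 24 fell (44.4%, against 16.7%) and 8 rose (14.8%, against 17.9%). Of the 54, 49 had a highest group mean above 5.84, against 13530 of all 22180 genes. Among all genes above 5.84, 25.4% were called lower and 28.9% higher after thapsigargin. The shares were 6.68% and 5.85% with forskolin added, and 24.8% and 28.2% for the combined treatment against DMSO. The 6 largest changes after thapsigargin were falls. Pcsk6, a proprotein convertase of the family that cuts class 3 semaphorins, changed by -2.03 ± 0.11, and L1cam, an adhesion molecule that joins Nrp1 in the Sema3a receptor, by -1.78 ± 0.05.

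Itga1, the alpha1 integrin chain that pairs with beta1, changed by -1.84 ± 0.06, and Met, a receptor kinase that associates with Plxnb1, by -1.31 ± 0.05. Ptk7, a receptor pseudokinase, changed by -1.49 ± 0.06 and Mical2, of a family of enzymes that oxidise actin downstream of plexins in flies, by -1.28 ± 0.07, all with limma adjusted p up to 7.78e-07. With forskolin added, Pcsk5, another convertase, rose by 1.52 ± 0.07 (limma adjusted p = 2.05e-06), or 2.87-fold, and Itga1 and L1cam rose by 0.73 ± 0.06 and 0.68 ± 0.05. Rnd1, a GTPase that binds the inner part of plexins, fell by 0.77 ± 0.05 and had risen by 1.15 ± 0.05 after thapsigargin.

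Dpysl3, which encodes a collapsin response mediator, fell by 0.58 ± 0.07 and Met by 0.56 ± 0.05 when forskolin was added. Against DMSO the combined treatment left Pcsk6 at -1.94 ± 0.11, Met at -1.88 ± 0.05, Mical2 at -1.50 ± 0.07, Ptk7 at -1.36 ± 0.06, Itga1 at -1.11 ± 0.06 and L1cam at -1.10 ± 0.05, with limma adjusted p up to 7.8e-07. Vegfa, whose product competes for Nrp1, was named after its values were seen. It rose by 1.15 ± 0.06 after thapsigargin (limma adjusted p = 6.1e-07), while Nrp1 fell.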

How the data were processed

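RNA of 9 podocyte samples was measured on single-colour arrays. The authors deposited 1 log2 intensity per probe set and array. Per the submitters' processing notes the tools were RMA and affy, with versions not given in the sources used here. RMA corrects background and makes array distributions alike, so changes are relative to the bulk of genes. Of 41345 probe sets 23521 carried 1 gene symbol, and the one with the highest mean over 9 arrays stood for its gene. All 32 family symbols matched RefSeq by Entrez ID, and 2 genes had a second probe set.

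One limma fit (limma 3.58.1, R 4.3.3) of 3 group means with 6 residual degrees of freedom tested 3 two-sided contrasts with eBayes, adjusted by Benjamini-Hochberg over 22180 genes and called below 0.05. Errors of changes are standard errors and intervals are 95%. Values on every array are given for members called at least once and above the median of all values; of the pathway list, the 6 largest called changes per comparison are named. Alternatives changed the arrays fitted, prior, array weights, scaling, probe set choice, level filter and replicate block, and left out each array in turn. The family, lists and motifs were chosen with earlier results of these data known. The fit was tested on simulated data. Figures used matplotlib 3.10.9 (Python 3.11.15). The number of arrays limits precision.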

Additional observations from a re-analysis of the deposited data

How the results depend on the processing

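The counts of family genes called were recomputed under 17 alternatives set at the start and 1 added after seeing the data (leaving out the first replicate of both DMSO and the combined treatment, each the array of its own group with the widest deviations over all genes, though not over the family). No call changed sign under any of them. With 1 array left out, thapsigargin against DMSO gave 0 to 1 higher and 18 to 20 lower genes, forskolin added to thapsigargin 3 to 6 higher and 3 to 5 lower, and the combined treatment against DMSO 1 higher and 16 to 18 lower. For forskolin added to thapsigargin, 3 genes in place of 5 were lower with only the 6 arrays compared, and 3 with the 2 arrays left out. For the combined treatment against DMSO, 2 genes in place of 1 were higher with an intensity trend and robust prior and 2 among genes above the median level, and 14 in place of 18 were lower with the 2 arrays left out. Of 20, 10 and 19 calls in the 3 comparisons, 18, 6 and 15 held under all 18 alternatives. Over all genes, the 924 called lower when forskolin was added became 600, 586 and 568 without combined replicate 2, thapsigargin replicate 1 and thapsigargin replicate 3. Correlations of deviations ran from -0.07 to 0.25 between same-numbered samples and from -0.30 to 0.25 between others. Pairs of replicate 3 lay between 0.18 and 0.23, so whether replicate numbers partly pair the samples is not settled. Fitting a replicate block gave 1 higher and 19 lower, 4 and 5, and 1 and 18 in the 3 comparisons. Sema4c (limma adjusted p = 0.0631) and Plxna3 with forskolin (0.0695) lost their calls, and Sema4f after thapsigargin gained one (0.0258). Background was corrected before deposit, so members below the median have no check of signal over background.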
